A study of Drosophila melanogaster with 4 samples.

Results

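The genes described here are Obp99c, Obp56d, Obp56g and Obp57c, 4 odorant-binding protein genes measured in heads of vigabatrin-treated flies. They were chosen by measured values: an earlier look at the same VGB and NF ratios singled them out among the Obp genes with values on at least 3 arrays. They are 4 of the 6793 genes that the array's annotation names. Probes were taken where that annotation gave exactly 1 gene and it was a member, which found 8 probes among the 13824 of the array. Obp56d had 3 probes, Obp56g and Obp57c had 2 each, and Obp99c had 1. Of the 8 probes, 7 had values, each on at least 3 of the 4 arrays, and the second Obp56d probe had a value on no array. Because the members were picked on this contrast, their values are a description, no p is given for any of them, and counts of members called in the fit over all probes stand only beside the share of all probes called.

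Each array compared RNA from heads of Oregon-R males on food with vigabatrin (VGB) and on normal food (NF). Vigabatrin is a drug that irreversibly blocks GABA transaminase, the enzyme that degrades the inhibitory transmitter GABA. The males were wild type and unmated, 10 to 11 days old at the start, and spent 3 days on NF or on food with 24 mg of VGB per ml, 30 flies to a vial. Heads were pooled, and each of the 4 arrays set treated RNA against untreated RNA of what the design text calls 1 biological replicate. The treated pool was labelled with Cy5 on replicates 1 and 2, and the dyes were swapped on replicates 3 and 4. Nothing in the design is a genetic model, and both pools of an array came from the same strain.

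Odorant-binding proteins are small secreted proteins that support cells of insect sensilla release into the fluid around the dendrites of chemosensory neurons. There they bind hydrophobic odorants and pheromones and carry or buffer them on the way to the receptors. In the fly head they are made in the antenna, the maxillary palp and the taste sensilla of the proboscis, and several family members are also found in other tissues. In RNA from whole heads, fewer cells of such a type and less RNA per cell cannot be told apart. Obp99c belongs to the group of family members with fewer conserved cysteines. Obp56d is found in both smell and taste organs, and Obp56g in taste organs and in the male reproductive tract. Obp57c lies beside Obp57b in the gene order of chromosome arm 2R. Obp57d and Obp57e, which are not within 5 genes of Obp57c, are known for their part in taste-guided choice of egg-laying sites. Obp56d and Obp56g belong to a run of Obp56 genes on the same arm, with Obp56c and Obp56e next to Obp56d and Obp56h after Obp56g. Obp99c lies on arm 3R, with Obp99d and Obp99b within 5 genes of it.

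A value below is the mean of the 2 adjacent duplicate spots of a probe, minus the median of its array over all probes, on the log2 scale. It is a difference between VGB and NF within an array and never a level, so genes cannot be ranked by abundance. The deposited values do not state which dye is the numerator on the swapped arrays. Unless another reading is named, they are read as Cy5 over Cy3, so that replicates 3 and 4 were turned and every value is VGB over NF. The other reading takes all 4 arrays as VGB over NF with no array turned, and it changes the sign on replicates 3 and 4 only. Each direction depends on this choice, and on the ratio not being inverted as a whole, which would turn every sign.

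Values that passed the authors' filters covered 2822, 1280, 1517 and 3231 probes on replicates 1 to 4, which is 20.4%, 9.26%, 11.0% and 23.4% of the array. The member probes had 4, 5, 6 and 7 values on these arrays, 22 in all, and both spots were measured for each. Replicate 4 was the only array with all 7. Of the fixed tissue lists, 8 of the 11 photoreceptor genes and 3 of the 3 neuronal genes on the array had a value. The counts were 4 of 6 for glia, 6 of 10 for fat body, 3 of 8 for muscle and 0 of 4 for male reproductive genes. The files hold ratios, so these counts show only which markers passed the filters.

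Obp99c stood at -0.62 on replicate 2, -0.0085 on replicate 3 and -1.05 on replicate 4, with no value on replicate 1. It was well below the array median on 2 of the 3 arrays and at it on replicate 3. On replicate 4 only 0.279% of all probes on the array lay lower. The mean was -0.56 ± 0.52 (SD, n = 3), or 67.8% of the NF level, and -0.31 without replicate 4. The 2 spots differed by 0.089, 0.23 and 0.007 on replicates 2 to 4. On replicate 3 they lay on opposite sides of the array median, at 0.11 and -0.12.

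Means of markers of the fat body, a tissue of the head that secretes into the haemolymph, lay on the same side in this reading. None was called. The list of fat body markers was drawn up with earlier results of these data known. Of its 10 genes on the array, 6 had a value on any array and 4 on at least 3. The 5 probes of those 4 genes had means from -0.64 to -0.12 with a median of -0.52, against -0.04 over all 1114 probes measured on at least 3 arrays. The mean of -0.12 was that of Npc2a. This gene lay above the array median on replicates 1 and 2 and below it on replicates 3 and 4. The list also holds apolpp, the gene found below to be closest to Obp99c. Medians were -0.05 for photoreceptor, -0.10 for neuron and 0.0022 for muscle probes on at least 3 arrays, and the 1 glia probe had -0.04. The part of the fat body in the Obp99c result was not tested. In the other reading the median of the 5 fat body probes was 0.29.

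Obp56d had values from the first and the third of its probes. The first probe stood at -0.18 on replicate 1, 0.03 on replicate 2 and -0.80 on replicate 4, a mean of -0.32 ± 0.43 (SD, n = 3). The third probe stood at -0.15 on replicate 2, -0.44 on replicate 3 and -0.81 on replicate 4, a mean of -0.46 ± 0.33 (SD, n = 3). Both probes were near the array median on the arrays with VGB on Cy5 and far below it on replicate 4. There 1.76% and 1.70% of all probes lay lower than the first and the third probe. Without replicate 4 the means were -0.076 and -0.29, so the first probe's mean rests on that array.

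Obp57c had probes that lay apart on replicates 3 and 4. The first stood at -0.25, -0.60 and -0.84 on replicates 2 to 4, below the array median on 3 of 3 arrays, with a mean of -0.56 ± 0.29 (SD, n = 3). The second was the only member probe with a value on all 4 arrays, and it stood at 0.32, -0.40, 0.39 and -0.26 on replicates 1 to 4. Its arrays split evenly about the median, and the mean was 0.013 ± 0.40 (SD, n = 4). On replicate 3 the probes of this gene lay on opposite sides, the first with 5.47% of all probes lower and the second with 80.6%.

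Obp56g showed the widest gap between probes of 1 gene. The first stood at -0.008 on replicate 1, 0.056 on replicate 3 and -0.54 on replicate 4, a mean of -0.16 ± 0.33 (SD, n = 3) that was 0.024 without replicate 4. The second stood at 0.30, 0.88 and 1.57 on the same arrays, above the median on 3 of 3, with a mean of 0.92 ± 0.64 (SD, n = 3). On replicate 4 the second probe was higher than 99.7% of all probes, while 8.20% lay below the first. Without replicate 4 the second probe's mean was 0.59.

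**Figure D1:**
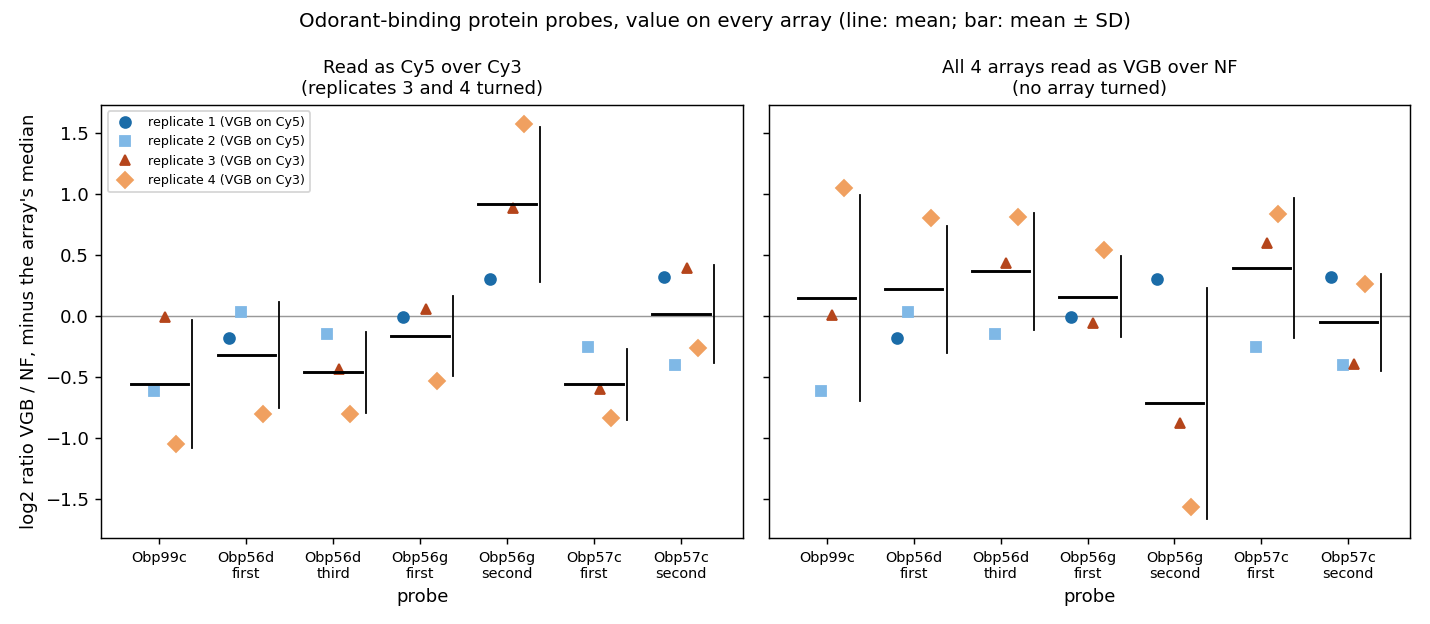
Log2 ratio of VGB to NF minus the array median (y axis) for the 7 measured member probes (x axis), with 1 point per array; lines are means and bars are mean ± SD over the arrays measured. In the left panel the Obp99c, Obp56d, first Obp57c and first Obp56g probes have means from -0.56 to -0.16 and the second Obp56g probe one of 0.92; in the right panel, with no array turned, these signs are reversed and the spread is wider for most probes.

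Taken over arrays, the median of the members lay closest to the array median on replicate 3 and farthest from it on replicate 4. It was 0.15 on replicate 1, -0.25 on replicate 2, 0.024 on replicate 3 and -0.80 on replicate 4. Single member probes on replicate 3 ran from -0.60 to 0.88. The small median there comes from probes on both sides and not from probes near the array median. The probes below the array median numbered 2 of 4, 4 of 5, 3 of 6 and 6 of 7. Every probe with a value counted toward the array median, and the probes measured on at least 3 arrays, as the members are, did not sit at 0 on replicate 4. Their median there was -0.22, with 71.4% below 0, so the reference for the 6 of 7 is that share. The percentages of probes lying lower than a member, given above, were taken over all probes of the array and not over this set. On replicate 4 they therefore carry the same shift. On replicates 1 to 3 the shares of such probes below 0 were 51.2%, 43.1% and 55.3%.

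The means of the 2 dye orders had the same sign for 6 of the 7 probes in the Cy5-over-Cy3 reading, with unlike sizes. The members were chosen on this contrast and the share over all probes is not given, so nothing is read from this count. Single arrays within a dye order differed in sign for the first Obp56d probe (VGB on Cy5) and the first Obp56g probe (VGB on Cy3). They did so in both dye orders for the second Obp57c probe. Obp99c had -0.62 on its only array with VGB on Cy5 and a mean of -0.53 on the 2 arrays with VGB on Cy3 (-0.0085 and -1.05). The other probes with means below 0 were closer to 0 where VGB carried Cy5. The first Obp56d probe had means of -0.076 and -0.80 in the 2 dye orders, the third -0.15 and -0.62, the first Obp57c probe -0.25 and -0.72, and the first Obp56g probe -0.008 and -0.24. The second Obp56g probe had 0.30 and 1.23, and the second Obp57c probe -0.039 and 0.065.

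With treatment and dye order as 2 terms of one limma model, Obp99c had a treatment term of -0.57 and a dye term of -0.044. Its arrays with VGB on Cy3 stood at -0.0085 and -1.05, so the small dye term does not mean that its arrays agreed. Every member probe but the second Obp57c probe has a single array in one of the dye orders, and both of its terms rest on that array. For the third Obp56d probe the terms were -0.39 and 0.24, and for the first Obp57c probe -0.49 and 0.23. The second Obp56g probe had 0.76 and -0.46. For the first Obp56d probe the terms were -0.44 and 0.36, and for the first Obp56g probe -0.12 and 0.12. For the second Obp57c probe they were 0.013 and -0.052. In the other reading the terms change places, and what is given here as treatment would be dye.

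In the other reading the values on replicates 3 and 4 change sign and those on replicates 1 and 2 stay, so the means differ. Obp99c then stood at -0.62, 0.0085 and 1.05 on replicates 2 to 4, a mean of 0.15 ± 0.84 (SD, n = 3). The first and the third Obp56d probe had means of 0.22 ± 0.52 and 0.37 ± 0.48 (SD, n = 3 each). The first Obp57c probe had 0.39 ± 0.57 and the second Obp56g probe -0.72 ± 0.95 (SD, n = 3 each). Means of 0.16 ± 0.33 (SD, n = 3) and -0.052 ± 0.40 (SD, n = 4) were left for the first Obp56g and the second Obp57c probe.

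The limma fit over all 1114 probes on at least 3 arrays called 0 of the 7 member probes at an adjusted p under 0.05, where 0.359% of all probes were called. At an unadjusted p under 0.05 it marked 4 of 7, where 8.44% of all probes were marked. In the other reading it called 0 of 7, where 0.0% of all probes were called, and marked 1 of 7 at the unadjusted p, where 14.0% of all were. The second Obp56g probe alone among the members was called under other settings. It was called higher in the model with a dye term (1.97% of all probes called), with the first of the duplicate spots alone (0.359%) and without replicate 2, an array on which it has no value (2.06%). Since the members were chosen on this contrast, nothing is read from these counts.

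**Figure D2:**
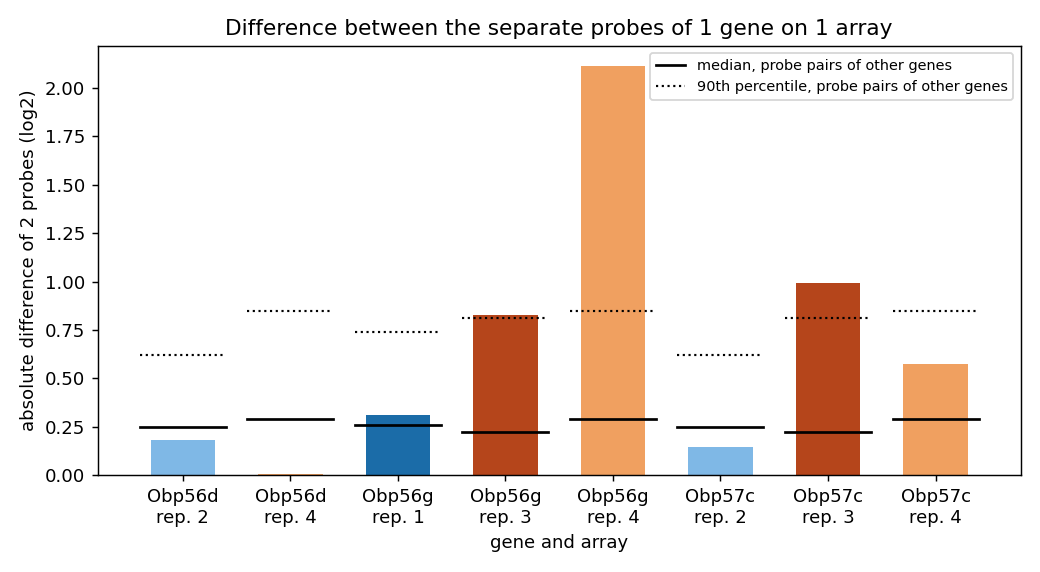
Absolute log2 difference between the separate probes of Obp56d, Obp56g and Obp57c (y axis, bars) on each array where both were measured (x axis); solid and dotted lines are the median and the 90th percentile over probe pairs of other genes on that array. The Obp56d bars lie under the median lines, and the Obp56g bar of replicate 4 stands at 2.11 against a 90th percentile of 0.85.

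How far separate probes of a gene agreed was then set against other genes with more than 1 probe. The size of this difference is the same in either reading of the dyes and with or without subtracting the array median. The Obp56d probes differed by 0.18 on replicate 2, where 41.0% of 39 probe pairs of other genes differed by less, and by 0.0045 on replicate 4, where 1.08% of 93 pairs did. The Obp57c probes differed by 0.15, 0.99 and 0.58 on replicates 2 to 4, more than 41.0%, 91.9% and 79.6% of the other pairs. The Obp56g probes differed by 0.31, 0.83 and 2.11 on replicates 1, 3 and 4, more than 56.0%, 89.2% and 100.0% of the other pairs. Over the shared arrays the mean difference was 0.093 for Obp56d (n = 2), 0.57 ± 0.42 for Obp57c and 1.08 ± 0.93 for Obp56g (SD, n = 3 each).

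On replicates 3 and 4 the spots of 1 probe agreed better than the probes of 1 gene did for Obp57c and Obp56g. Of the 22 pairs of duplicate spots, 16 differed by less than 0.25. The median difference over members was 0.27, 0.12, 0.088 and 0.13 on replicates 1 to 4, close to the 0.26, 0.16, 0.14 and 0.14 over all probes. The largest were on the second Obp56g probe, 0.62 on replicate 4 (spots at 1.26 and 1.88) and 0.52 on replicate 1 (0.56 and 0.04). The spots of the first probe lay at -0.58 and -0.50 on replicate 4, so no spot of one probe came near a spot of the other there. Which of the disagreeing probes follows its gene was not tested, and the sequences of the printed clones were not used here.

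**Figure D3:**
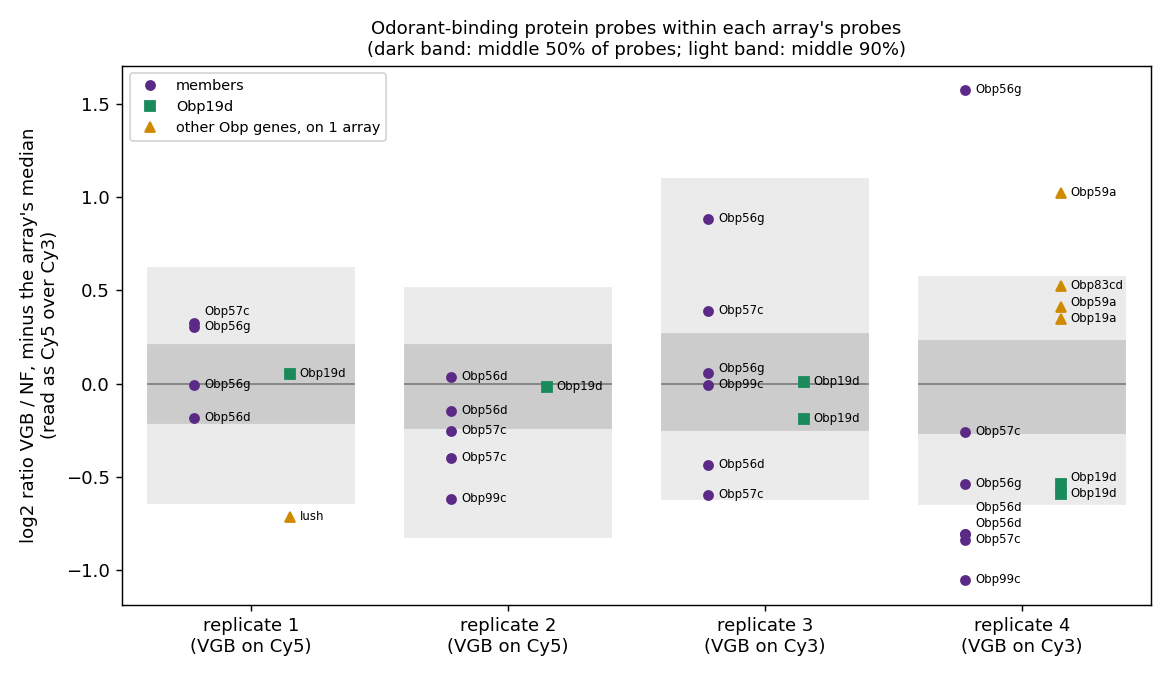
Log2 ratio of VGB to NF minus the array median, in the Cy5-over-Cy3 reading (y axis), on each array (x axis) for member probes (circles), Obp19d probes (squares) and Obp probes measured on 1 array (triangles); the dark and light bands hold the middle 50% and 90% of all probes on the array. On replicate 4 the member probes other than the second Obp56g probe and both Obp19d probes lie below 0, and the 4 triangles lie above it.

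The rest of the family was measured sparsely. Of 52 Obp genes in the gene table, lush included, 20 had a single-gene probe on the array, 9 had a value on any array and 5 on at least 3, the members and Obp19d. Obp19d, a gene of smell and taste organs, is the family member just outside the group. Its first probe stood at 0.052 on replicate 1, 0.008 on replicate 3 and -0.54 on replicate 4 (mean -0.16 ± 0.33, SD, n = 3; limma adjusted p = 0.99). Its second stood at -0.021, -0.19 and -0.59 on replicates 2 to 4 (mean -0.27 ± 0.29, SD, n = 3; limma adjusted p = 0.89). Both Obp19d probes lay farthest from the median on replicate 4, and neither was called, where 0.359% of all probes were. In the other reading the means were 0.19 and 0.25 (limma adjusted p = 0.59 and 0.50).

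Obp genes seen on replicate 4 alone lay on the other side. Obp59a, which is known for a role in sensing humidity, had 1.02 and 0.41 from its probes, Obp83cd had 0.52 and Obp19a 0.35. All 4 of these probes were above the array median, whereas 8 of the 9 Obp probes measured on at least 3 arrays were below it on replicate 4. Those 9 include the 7 member probes, which were chosen on these ratios. Of all probes on at least 3 arrays, 71.4% were below 0 on replicate 4. The array as a whole showed the same split. The 1314 probes with a value on replicate 4 alone had a median of 0.10 with 61.9% above 0, against the median of -0.22 for probes on at least 3 arrays. The part that detection plays in this split was not tested. The pheromone-binding gene lush was measured on replicate 1 alone, at -0.72.

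Of other chemosensory genes fixed as lists, few had values. Limma called 0 of 4 tested probes at an adjusted p under 0.05, Obp19d included, where 0.359% of all 1114 probes were called. At an unadjusted p under 0.05 it marked 0 of 4, where 8.44% of all were marked. In the other reading it marked 1 of 4, where 14.0% of all were. With 4 probes, nothing is read from these counts. Among 5 receptor genes on the array, the taste receptor gene Gr61a had -0.10 and 0.18 on replicates 3 and 4, and the ionotropic receptor gene Ir47a 0.26 on replicate 3. Among 6 genes of other secreted proteins, the sterol carrier gene Npc2a had 0.35, 0.53, -0.61 and -0.74 on replicates 1 to 4 (mean -0.12 ± 0.65, SD, n = 4; limma adjusted p = 0.99). In this reading its sign followed the dye order on every array. In the other reading it was above 0 on all 4 arrays, with a mean of 0.56 (limma adjusted p = 0.11). Npc2b had a mean of -0.044 ± 0.16 (SD, n = 4; limma adjusted p = 0.997). Npc2f had -1.36 on replicate 1 and -0.66 on replicate 4.

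The genes closest to each member probe were found by the root mean square difference of centred values over the arrays the member had, which does not depend on the reading of the dyes. This likeness rests on 3 or 4 arrays, among 311 to 422 probes of other genes. Obp99c was closest to apolpp and Jhbp13, at 0.16 and 0.19 against a median of 0.67 over 422 probes. The first Obp56d probe was closest to Loxl1 and Pdh (0.065 and 0.083), and the third to Desat1 and Taldo (0.055 and 0.061). The first Obp57c probe was closest to CG11843 and CG11400 (0.066 and 0.097), and the second to Galphaq and CG11155 (0.15 for both). The first Obp56g probe was closest to Obp19d (0.044) and Droj2 (0.054). The second Obp56g probe was closest to Elp2 and Atf6, at 0.55 and 0.63. Its median over the 382 probes compared was 1.15, against 0.33 for the first Obp56g probe. The distance grows with the size of a probe's values, so the distances of these probes are not on a common footing.

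By the same measure, probes of 1 gene were near each other for Obp56d only. On their 2 shared arrays 2.12% of 565 probes were closer to the first Obp56d probe than the third was. For the first Obp57c probe 71.3% of 422 probes were closer than its partner. For the first Obp56g probe 99.7% of 383 probes were closer than the second was. Taken from the other probe of each pair, the shares were 1.95% for Obp56d, 90.5% for Obp57c and 77.0% for Obp56g. The Obp57c and Obp56g pairs shared 3 arrays each.

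**Figure D4:**
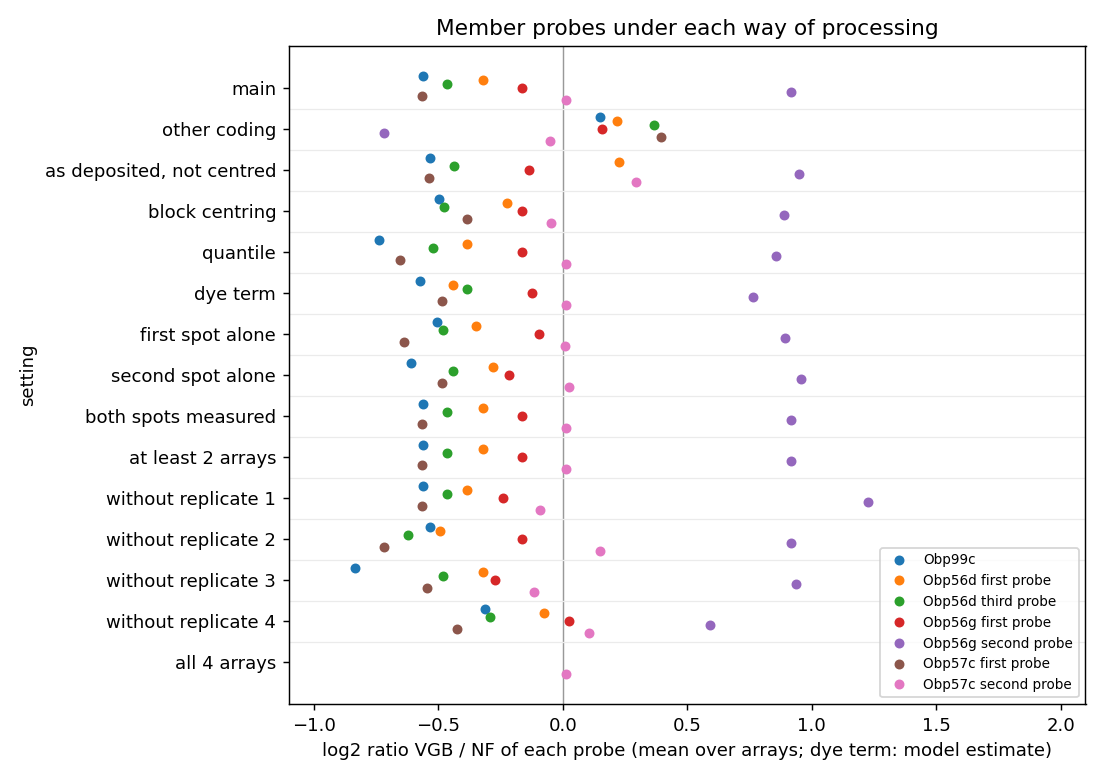
Log2 ratio of VGB to NF of each member probe (x axis) under each way of processing the values (y axis); points are means over arrays, or the model's estimate for the dye term. The second Obp56g probe lies apart at 0.59 to 1.23 in every setting but the other coding, where it is at -0.72, and Obp99c runs from -0.84 to 0.15.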

How the data were processed

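RNA from heads of VGB and NF flies was compared on 4 two-colour spotted cDNA arrays. The design text states that the authors quantified scans with GenePix Pro 6.0, normalized the dye ratio in Acuity 4.0 and dropped spots failing filters on saturation, flags, uniformity and signal-to-noise ratio (at least 3). The deposited values are log ratios per spot, taken here as log2. Their base, centring and direction on dye-swapped arrays are not given in the sources used here, and column medians of 1.03, 1.04, 0.52 and 0.45 show no centring.

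Duplicate spots were averaged and each array's median over probes was subtracted. The platform's old gene names were updated by gene identifier through a Release 6 table, and all 4 member symbols were unchanged. Positions are left out because the files name no genome build. The fit was limma 3.58.1 (R 4.3.3) with an intercept alone and a two-sided test, Benjamini-Hochberg adjusted over the 1114 probes on at least 3 arrays. It was run on simulated independent noise with the observed spread and missing values. The only condition was that larger changes be recovered more often than smaller ones. No dye effect or array shift was simulated, so this does not measure the error of the fit on these data. The authors' one-class SAM 2.21 was not run here.

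Members and lists were chosen with earlier results of these data known. Named were all member probes, every other Obp gene with a value, up to 3 genes of each other chemosensory list (those with the most arrays), and the 2 nearest genes by root mean square difference. Alternatives were the other dye reading, no centring, centring of runs of 576 consecutive spots (array median where a run held under 10 values), quantile normalization, a dye term, single spots, other minimum numbers of arrays, and leaving out each replicate from the same probes. Requiring both spots, and centring by runs for the probe pairs, were chosen after seeing the data. Ratios give no signal level, and the number of arrays limits the precision. The design text calls the 4 sets biological replicates, while the extract protocols in the labels place the pools of a treatment in 1 parallel set, so SDs and p-values may measure partly technical spread.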

Additional observations from a re-analysis of the deposited data

Results flagged for a closer look

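For 2 genes outside the members, the arrays with VGB on Cy5 and those with VGB on Cy3 lay on opposite sides of the array median in the Cy5-over-Cy3 reading, every array of each dye order going the same way. For Npc2a the difference between the means of the dye orders was 1.12, and for Npc2b 0.26. In the limma model with a dye term, which tests this difference over all 1114 probes, the dye term, the offset of a dye order from the treatment term, was 0.56 for Npc2a (adjusted p = 0.029) and 0.13 for Npc2b (adjusted p = 0.60). The second Obp57c probe is the only member probe with values on 4 arrays, and none of its values stood apart from the other 3. This was among 7 quantities looked at, of which chance marks about 1 in 20. The other measured member probes have 3 values each, so this check did not cover them.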

How the results depend on the processing

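The other reading of the dyes moved 5 member means by more than their SD, to 0.15 for Obp99c, 0.22 and 0.37 for the first and the third Obp56d probe, -0.72 for the second Obp56g probe and 0.39 for the first Obp57c probe. Without centring the first Obp56d mean was 0.23, because 2 of its arrays have VGB on Cy5 and 1 has it on Cy3. Nothing else that was tried moved a member mean by more than its SD, although signs changed for means near 0. The first Obp56g mean was 0.024 without replicate 4, and the second Obp57c mean was -0.052 in the other reading, -0.047 with centring by runs of spots, -0.090 without replicate 1 and -0.11 without replicate 3. The median of all tested means was -0.04 after centring, 0.20 as deposited and 0.07 in the other reading. Over the 1114 probes, limma called 4 in the main fit and 0 in the other reading, without centring and with quantile normalization (156, 0 and 82 at an unadjusted p under 0.05). It called 1 with centring by runs of spots, 22 with a dye term, 2 of 591 with all 4 arrays required and 0 of 2107 with at least 2 (141 unadjusted). Leaving out 1 replicate gave 0 to 23 calls, with 0 without replicate 4 and 23 without replicate 2. With all 4 arrays required, only the second Obp57c probe among the members gave a value. No paired analysis was possible because each array already sets treated against untreated RNA. Centring by runs of spots, chosen for the probe pairs after seeing the data, moved the mean difference between the Obp56d probes to 0.285 and kept those of Obp56g and Obp57c within their SD (1.05 and 0.54). Of the 7 member probes, 6 have 3 values, which limits every mean here.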
